A study of Mus musculus with 5 samples.

Results

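The inhibitors of cyclin-dependent kinases (CDKs) and the D cyclins were described across 5 single-cell RNA-seq libraries of differentiating mouse epiblast stem cells (EpiSCs). The 9 genes were chosen by their symbol, of 32285 genes in the files, after their levels in these libraries were known: the INK4 inhibitors Cdkn2a, Cdkn2b, Cdkn2c and Cdkn2d, the Cip/Kip inhibitors Cdkn1a and Cdkn1b, and the cyclins Ccnd1, Ccnd2 and Ccnd3. Their levels are therefore given as a description, without tests.

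D cyclins bind CDK4 and CDK6 and carry the growth factor signal into the cell cycle, because their transcription depends on mitogens such as FGF acting through ERK. The active kinases phosphorylate the retinoblastoma protein and so release E2F transcription factors, which turn on the genes of DNA replication. INK4 proteins block CDK4 and CDK6, whereas Cip/Kip proteins mainly block CDK2. The Cdkn2a and Cdkn2b genes lie next to each other, are held silent by Polycomb proteins in stem cells, and are known for their expression in senescence.

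EpiSCs are pluripotent cells of the post-implantation epiblast, here 1 wild-type line of a 129 background kept on fibronectin (no feeder cells are named in the methods). All 5 cultures were differentiated for 3 days in N2B27 medium with 1 µM CHIR99201, a GSK3 inhibitor that activates Wnt signaling, and 8 ng/ml BMP. They differed in FGF signaling: 1 received 30 nM of the FGF receptor inhibitor AZD4547 (FGFRi), and the others 0, 0.75, 3 or 12 ng/ml FGF2. The labels give no FGF2 dose for the culture with the inhibitor, so effects of the inhibitor and of a different FGF2 dose cannot be told apart when it is compared with the culture at 0 ng/ml. Each condition is 1 library of 1 line, and no test between conditions was possible. Levels are unique molecular identifiers (UMIs) of a gene summed over the cells of a library and divided by the library's total. They were scaled to the usual unit of CPM. Their 95% intervals cover counting error only, and not the clustering of UMIs in cells or the spread between cultures.

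The retained cells were 1701 with FGFRi and 1696, 2725, 2125 and 2406 along the FGF2 doses, with median depths of 24408 to 29662 UMIs. Of 10646 distinct barcodes of retained cells, 7 occurred in more than 1 library. Among the markers of cell types, the Nanog level was at most 2.03 CPM in any library, the label EpiSC naming the starting line and not the cells after 3 days. The summed level of 6 surface ectoderm markers was 2687 CPM with FGFRi and 866 CPM at 12 ng/ml FGF2, and that of 6 markers of primitive streak and nascent mesoderm was 53.6 and 430.4 CPM. Of the 53.6 CPM with FGFRi, 50 CPM were Wnt3, which was at 14.6 CPM at 12 ng/ml. T (T/Bra) of the same list was at 0.753 and 208 CPM, and Mixl1, Eomes and Mesp1 were under 1 CPM with FGFRi. The summed epiblast markers were at 48.6 and 86.1 CPM, those of presomitic mesoderm at 28.1 and 706 CPM, and those of extraembryonic and lateral mesoderm at 157 and 82.4 CPM in the same libraries. Some genes went against the sum of their list, such as the epiblast marker Otx2 (12 and 1.88 CPM) and the lateral mesoderm marker Foxf1 (0.418 and 5.58 CPM). Markers of other cell types thus differed between the libraries together with the members, and in summed levels fewer cells of a kind and less RNA per cell cannot be told apart.

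Cdkn2a and Cdkn2b are neighbors on chromosome 4 and both are read from the minus strand. Their promoter windows, 250 bases before to 50 bases after each RefSeq start on GRCm38.p6, are shown because both genes had the same order of libraries. Cdkn1b, on chromosome 6, had this order as well, so the order is not particular to the neighbors. Cdkn2a spans chr4:89274471-89294653 and has 2 starts, of which the upstream one gives p19ARF and the downstream one p16INK4a. Capitals mark the GC box GGGCGG on either strand.
Cdkn2a upstream start (chr4:89294570-89294869): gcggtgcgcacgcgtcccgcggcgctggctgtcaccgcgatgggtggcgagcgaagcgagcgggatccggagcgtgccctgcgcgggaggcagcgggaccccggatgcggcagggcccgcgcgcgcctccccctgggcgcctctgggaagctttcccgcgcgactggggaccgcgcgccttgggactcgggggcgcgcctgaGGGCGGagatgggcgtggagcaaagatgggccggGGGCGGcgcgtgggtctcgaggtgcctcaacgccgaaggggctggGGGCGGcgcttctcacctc
Cdkn2a downstream start (chr4:89282143-89282442): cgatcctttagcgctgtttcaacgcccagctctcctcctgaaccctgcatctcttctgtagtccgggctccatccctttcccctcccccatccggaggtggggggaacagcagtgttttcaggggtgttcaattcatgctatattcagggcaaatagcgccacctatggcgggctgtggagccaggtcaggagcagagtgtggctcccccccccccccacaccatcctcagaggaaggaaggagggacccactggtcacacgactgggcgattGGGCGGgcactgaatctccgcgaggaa
Cdkn2b start (chr4:89310983-89311282): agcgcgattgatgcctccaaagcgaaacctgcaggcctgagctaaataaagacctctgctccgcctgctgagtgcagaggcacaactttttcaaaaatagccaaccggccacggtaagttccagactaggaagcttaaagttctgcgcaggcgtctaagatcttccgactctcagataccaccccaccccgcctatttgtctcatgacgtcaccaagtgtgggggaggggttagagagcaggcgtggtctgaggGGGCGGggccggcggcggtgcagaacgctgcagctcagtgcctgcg
The upstream Cdkn2a window held 3 GC boxes, and the downstream window and the Cdkn2b window 1 each. A GC box was present in 35.7% of all 32851 promoter windows. The E2F motif TTCCCGC occurred in the upstream Cdkn2a window and in neither of the others, against 4.60% of all windows. Windows of other members, not printed here, held from 0 GC boxes (a Cdkn1a window) to 5 (the Cdkn2d window). A Cdkn2c window with 4 GC boxes also held the E2F motif. The AP-1 motif TGANTCA and the ETS motif CCGGAA were found in none of the 3 windows, against 7.81% and 14.9% of all windows, and CCAAT was in the downstream Cdkn2a window, against 37.4%. All motifs were searched on both strands, and a match describes letters and not a bound site.

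The 2 annotated Cdkn2a transcripts share a run of 578 bases at their common exons, and their annotated ends lie 70 bases apart. Because the assay counts the 3′ ends of transcripts, the deposited level of Cdkn2a does not separate p16INK4a from p19ARF. Cdkn2a and Cdkn2b transcripts share no run longer than 23 bases. Cdkn2b spans chr4:89306299-89311039. The other members lie elsewhere: Cdkn2c at chr4:109660876-109667189, Cdkn2d at chr9:21288410-21291407, Cdkn1a at chr17:29090976-29100727, Cdkn1b at chr6:134920401-134925513, Ccnd1 at chr7:144929931-144939925, Ccnd2 at chr6:127125162-127152193 and Ccnd3 at chr17:47505051-47599691 (GENCODE vM21, GRCm38). Genes on the opposite strand overlap Cdkn1a and all 3 D cyclins, among them the coding genes LTO1 at Ccnd1 and Bysl at Ccnd3. How reads of the other strand were treated is not given in the sources used here, so a share of these 4 levels could belong to the overlapping genes.

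Cdkn2a and Cdkn2b had the largest differences among the members. The Cdkn2a level was 354 CPM (interval 349 to 359.7) with FGFRi, 57.5 CPM (55.5 to 59.5) at 0 ng/ml FGF2, 9.11 CPM (8.47 to 9.79) at 0.75 ng/ml, 7.27 CPM (6.63 to 7.96) at 3 ng/ml and 9.0 CPM (8.31 to 9.73) at 12 ng/ml. The levels with FGFRi and without FGF2 stood above all libraries with exogenous FGF2, and only the intervals at 0.75 and 12 ng/ml overlapped. The level was 6.16-fold (5.94 to 6.40) lower without FGF2 than with FGFRi, and a further 6.31-fold (5.82 to 6.84) lower at 0.75 ng/ml than without FGF2. Above 0.75 ng/ml the ratio between neighboring doses was at most 1.25 in either direction.

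Cdkn2b, which encodes the inhibitor p15INK4b, followed the same order of libraries. Its level was 177 CPM (173 to 181) with FGFRi, 42.3 CPM (40.7 to 44.1) at 0 ng/ml, 6.13 CPM (5.61 to 6.69) at 0.75 ng/ml, 2.97 CPM (2.57 to 3.42) at 3 ng/ml and 4.25 CPM (3.79 to 4.76) at 12 ng/ml. None of these intervals overlapped, but they count each UMI as independent. At 3 ng/ml 21 cells with UMIs of both genes held 122 of the 192 Cdkn2b UMIs. At 12 ng/ml 27 such cells held 192 of 301. The level was 4.18-fold (4.0 to 4.38) lower without FGF2 than with FGFRi, 6.90-fold (6.27 to 7.62) lower at 0.75 ng/ml than without FGF2, and 2.06-fold (1.74 to 2.45) lower again at 3 ng/ml. The lowest levels of both genes were at 3 ng/ml rather than at 12 ng/ml. The shares of cells with a UMI, at 10000 UMIs per cell, had overlapping intervals at these doses. They were 0.881% to 1.91% and 1.19% to 2.27% for Cdkn2b, and 1.80% to 3.16% and 2.69% to 4.18% for Cdkn2a.

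The other INK4 genes were at lower levels. Cdkn2c, which encodes p18INK4c, was at 0.466 to 1.25 CPM, from 33 to 60 UMIs per library, and its intervals overlapped between all neighbors in the order of levels. Between the ends of this order they lay apart, and the level was 2.69-fold (1.73 to 4.25) higher with FGFRi and 2.19-fold (1.40 to 3.47) higher at 0 ng/ml than at 12 ng/ml. Cdkn2d, which encodes p19INK4d, was at 19.99 CPM (18.7 to 21.3) with FGFRi. Its levels with 0, 0.75, 3 and 12 ng/ml FGF2 were 17.0, 12.5, 13.5 and 15.3 CPM. Its lowest level was at 0.75 ng/ml, and the interval at 0 ng/ml overlapped that at 12 ng/ml. Counted at the 3′ end, without regard to transcript length, Cdkn2a and Cdkn2b made up 96.2% of the UMIs of the INK4 genes with FGFRi. At 12 ng/ml they made up 45.7%, and Cdkn2d held 52.7%. The Cdkn2a part of these UMIs can come from p16INK4a or p19ARF transcripts.

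Cdkn1a encodes p21, a CDK inhibitor and p53 target. Its level was 330.4 CPM (325 to 336) with FGFRi and 117 CPM (114 to 119.97) at 0 ng/ml, 112 CPM (109 to 114) at 0.75 ng/ml, 119 CPM (116 to 121) at 3 ng/ml and 123 CPM (121 to 126) at 12 ng/ml. The FGFRi library stood apart, and the other 4 lay within a ratio of 1.10. The level without FGF2 was 2.82-fold (2.74 to 2.90) lower than with FGFRi, and from 0 to 12 ng/ml the ratio was 1.05 (1.02 to 1.09). Unlike Cdkn2a and Cdkn2b, Cdkn1a therefore showed no large difference between 0 ng/ml and the doses above it over all cells.

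Cdkn1b encodes p27, an inhibitor that is high in cells without mitogens. Its level was 46.8 CPM (44.9 to 48.8) with FGFRi, 28.7 CPM (27.4 to 30.2) at 0 ng/ml, 24.4 CPM (23.3 to 25.5) at 0.75 ng/ml, 20.7 CPM (19.6 to 21.8) at 3 ng/ml and 21.7 CPM (20.6 to 22.8) at 12 ng/ml. The levels decreased up to 3 ng/ml, and the intervals at 3 and 12 ng/ml overlapped. The ratio was 1.63 (1.53 to 1.74) between FGFRi and 0 ng/ml and 1.33 (1.24 to 1.42) between 0 and 12 ng/ml.

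The D cyclins did not share 1 pattern. Ccnd1, the D cyclin best known as a mitogen target, was at 29.4 CPM (27.9 to 31.0) with FGFRi, 102 CPM (99.2 to 104) at 0 ng/ml, 128 CPM (126 to 131) at 0.75 ng/ml, 164 CPM (161 to 168) at 3 ng/ml and 166 CPM (163 to 169) at 12 ng/ml. The intervals at 3 and 12 ng/ml overlapped and all others were apart. The level was 3.46-fold (3.26 to 3.67) higher without FGF2 than with FGFRi, and 1.63-fold (1.58 to 1.68) higher at 12 ng/ml than without FGF2. The larger ratio of Ccnd1 was thus the one between the FGFRi culture and the culture without added FGF2.

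Ccnd2 was at 165 CPM (161 to 168) with FGFRi, 175 CPM (172 to 178) at 0 ng/ml, 267 CPM (263 to 271) at 0.75 ng/ml, 324 CPM (319 to 328) at 3 ng/ml and 352 CPM (348 to 357) at 12 ng/ml. No intervals overlapped, and the order followed the FGF2 dose. In contrast to Ccnd1, the ratio from FGFRi to 0 ng/ml was 1.06 (1.03 to 1.09), whereas that from 0 to 12 ng/ml was 2.01 (1.97 to 2.06). The direction of the ratio from FGFRi to 0 ng/ml depended on the weight of the cells, with a log2 ratio of 0.09 over summed UMIs and of -0.04 with equal weight per cell. Ccnd3 ran the other way, with 112 CPM (109 to 115) with FGFRi, 116 CPM (113 to 119) at 0 ng/ml, 95.1 CPM (93.0 to 97.2) at 0.75 ng/ml, 86.7 CPM (84.4 to 89.0) at 3 ng/ml and 84.4 CPM (82.3 to 86.5) at 12 ng/ml. The intervals of FGFRi and 0 ng/ml overlapped, as did those of 3 and 12 ng/ml, and the level was 1.37-fold (1.33 to 1.42) lower at 12 ng/ml than without FGF2. Summed over the 3 genes, the D cyclin level was 306 CPM with FGFRi and 393, 490.2, 575 and 602 CPM along the doses.

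**Figure D1:**
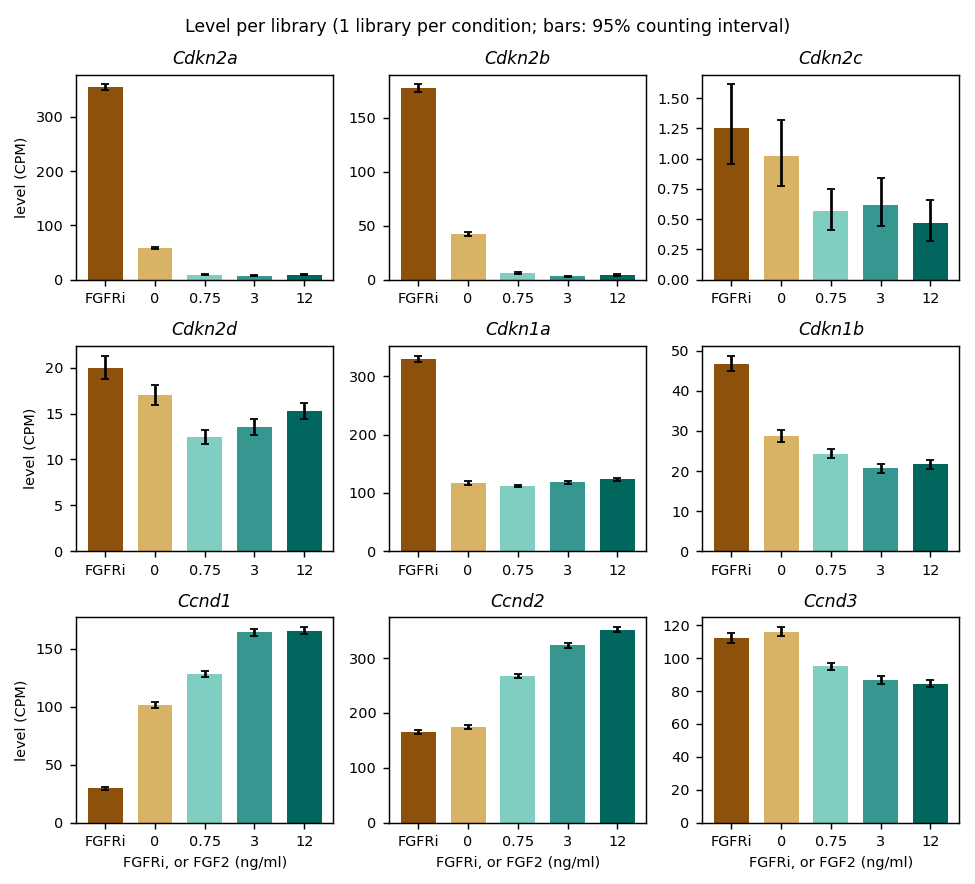
Level of each of the 9 genes in the 5 libraries, in CPM on axes that start at 0, with 1 bar per library (1 library per condition) and error bars for the 95% counting interval. Cdkn2a and Cdkn2b were highest with FGFRi (354 and 177 CPM), Cdkn1a stood apart in that library alone, Ccnd1 and Ccnd2 were highest at 12 ng/ml FGF2 (166 and 352 CPM), and Ccnd3 was highest at 0 ng/ml (116 CPM).

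The members were set against all genes by a rule of size, which counted a gene whose level was at least 10 CPM in either library and differed by at least 2-fold. From FGFRi to 0 ng/ml, 4 of the 8 members that passed the level limit were counted, with Cdkn2a, Cdkn2b and Cdkn1a lower and Ccnd1 higher without FGF2, against 7.99% of all genes. From 0 to 0.75 ng/ml, 2 of 8 members were counted, Cdkn2a and Cdkn2b, against 1.72%. From 0.75 to 3 ng/ml and from 3 to 12 ng/ml none of 6 members was counted, against 0.859% and 0.0883%. From 0 to 12 ng/ml, 3 of 8 were counted, against 5.91%, with Cdkn2a (6.39-fold) and Cdkn2b (9.95-fold) lower and Ccnd2 (2.01-fold) higher at 12 ng/ml. Cdkn2c was under 10 CPM in every library, and Cdkn2a and Cdkn2b were under it in all libraries with FGF2. Nothing follows from these counts about the members as a set, since they were chosen with these levels known, and the comparisons share libraries. Ccnd2 lay just inside the rule from 0 to 12 ng/ml (2.01-fold, 1.97 to 2.06), and the nearest ratios below 2 among members past the level limit were 1.63 for Cdkn1b from FGFRi to 0 ng/ml and 1.63 for Ccnd1 from 0 to 12 ng/ml.

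The levels also reflect how many cells held a UMI of a gene. With each cell thinned to 10000 UMIs, 64.5% of cells (62.1 to 66.8) had a Cdkn2a UMI with FGFRi and 20.5% (18.6 to 22.6) without FGF2. At the 3 doses above 0 the shares were 4.47%, 2.41% and 3.38%. Without thinning the shares were 74.1%, 30.0%, 9.10%, 4.24% and 6.53%. The mean number of Cdkn2a UMIs in cells that had any was 5.18 with FGFRi and 1.85 to 2.50 in the other libraries after thinning, so both the share of cells and the number per positive cell were highest with FGFRi. For Cdkn2b the thinned shares were 54.7%, 16.9%, 3.25%, 1.32% and 1.67%. Free RNA also leaves UMIs in droplets of cells without the transcript, and the lowest share in any class of cells described below is given for comparison. It was 1.31% for Cdkn2a (914 cells without a Cdh1 UMI and with a Cdh2 UMI at 0.75 ng/ml, median depth 27812 UMIs). For Cdkn2b it was 0.672% (1042 such cells at 3 ng/ml, median depth 28500 UMIs). Both classes come from libraries with FGF2, where the 2 genes were low. They give no background for the FGFRi library or the library at 0 ng/ml. By construction no library's share can lie below these values, so shares above them do not separate transcript from free RNA. At 3 ng/ml the Cdkn2a interval was 1.80% to 3.16%, against 0.680% to 2.28% for the lowest class. For Cdkn2b it was 0.881% to 1.91%, against 0.271% to 1.38%. The part of free RNA in the shares was not tested.

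For the other members the thinned shares moved less. Cdkn1a UMIs were found in 61.1% of cells with FGFRi and in 47.7% to 49.3% otherwise, with 3 or more UMIs in 34.2% and in 13.3% to 15.0%. Ccnd1 UMIs were found in 19.2% of cells with FGFRi and in 45.1%, 54.2%, 68.5% and 69.8% as the dose increased. The Ccnd2 shares were 58.1%, 56.0%, 68.6%, 80.2% and 86.7% in the same order, and those of Ccnd3 lay between 55.1% and 60.8%. Cdkn1b was detected in 34.9% of cells with FGFRi and in 18.4% to 23.6% otherwise, and Cdkn2d in 11.2% to 16.6%. Cdkn2c was found in 0.554% to 1.38% of cells. The lowest shares by class were 45.1% for Cdkn1a, 11.4% for Ccnd1, 35.6% for Ccnd2, 50.98% for Ccnd3, 15.5% for Cdkn1b and 9.26% for Cdkn2d. After thinning, Cdkn2c was found in 0 of 152 cells with both cadherins at 3 ng/ml and in 0 of 186 such cells at 12 ng/ml. Taken as 3 divided by the number of cells, this allows shares of up to 1.97% and 1.61% with a UMI at this depth. The exact binomial interval reached 2.40% at 3 ng/ml. Each of these classes had 1 Cdkn2c UMI before thinning, so the limits are not limits on cells that express the gene.

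Cdkn2a and Cdkn2b UMIs were found in the same cells. After thinning, Cdkn2b was detected in 75.8% of cells with a Cdkn2a UMI and in 16.3% of cells without one with FGFRi, and at 0 ng/ml in 55.4% and 6.90%. At 0.75 ng/ml the shares were 28.1% and 2.09%, at 3 ng/ml 41.2% and 0.339%, and at 12 ng/ml 33.3% and 0.561%. In each library the share was higher among cells with Cdkn2a. The number of cells with both genes was 813 of 1662 with FGFRi and 191 of 1679 without FGF2. With FGF2 it was 34 of 2706, 21 of 2115 and 27 of 2397, by increasing dose. This was 1.39 times the product of the single shares with FGFRi and 3.28, 8.64, 31.1 and 19.98 times along the doses. The highest value this ratio can take is set by the larger of the single shares, so it was not compared between libraries.

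**Figure D2:**
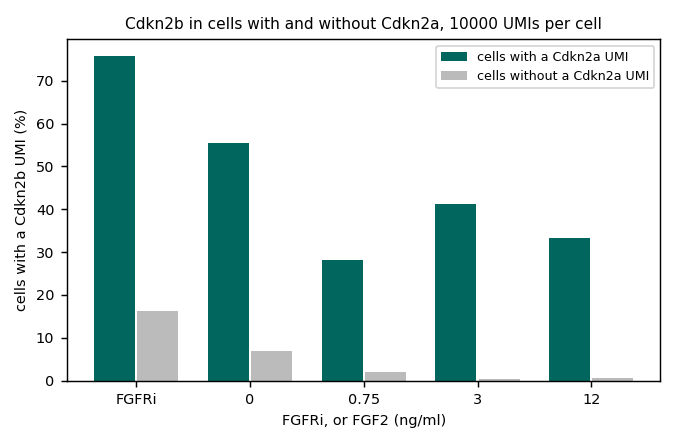
Percentage of cells with a Cdkn2b UMI among cells with (green) and without (gray) a Cdkn2a UMI in the same library, with each cell thinned to 10000 UMIs. The green bars lie between 28.1% and 75.8%, and each gray bar is lower, from 0.339% to 16.3%.

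The few cells with UMIs of both genes at high FGF2 differed from the other cells of their library in several members. This split was added after the levels had been seen, and the 21 and 27 cells at 3 and 12 ng/ml come from 1 culture each. Their Ccnd1 levels were 437 and 426 CPM at these doses, which was 2.74-fold (2.46 to 3.04) and 2.68-fold (2.43 to 2.94) that of cells with neither gene. At 0 ng/ml the ratio was 0.680 (0.623 to 0.742), and with FGFRi it was 1.02 (0.901 to 1.16), with 1.32 at 0.75 ng/ml. High Cdkn2a and Cdkn2b therefore went with higher Ccnd1 at the high doses and with lower Ccnd1 without FGF2. Cdkn1a was higher in the cells with both genes in all 5 libraries, by 7.15-fold (6.68 to 7.67) with FGFRi and by 2.06-fold to 2.98-fold otherwise. Cdx2, a transcription factor of the posterior embryo, was lower in them in all 5 libraries, at 0.147 to 0.218 of the level in cells with neither, and Hand1, a factor of lateral and extraembryonic mesoderm, was higher, by 1.25-fold to 4.84-fold. The ratio of the epithelial cadherin Cdh1 was 0.925 with FGFRi and 1.94, 2.11, 3.29 and 3.16 along the doses. That of the mesoderm cadherin Cdh2 was 1.91, 0.968, 0.551, 0.583 and 0.608 in the same order. T, a primitive streak marker, was lower in all 5 libraries, at 0.0348 to 0.370. The lowest of these ratios, with FGFRi (0.00402 to 0.138), rests on 2 T UMIs in the cells with both genes and 28 in those with neither. Cells with both genes were deeper than those with neither (median depths of 26812 and 21809 UMIs with FGFRi, and 36296 and 28432 UMIs at 3 ng/ml), and the part of depth and of doublets in these values was not tested.

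The members were then compared between cells with and without a UMI of Mki67, which marks cycling cells and is low in G0. The share of cells with a Mki67 UMI was 44.5% with FGFRi and 79.7%, 85.0%, 85.8% and 84.1% along the FGF2 doses (thinned: 34.2%, 65.2%, 70.2%, 69.5% and 66.1%). Cells with a Mki67 UMI were deeper, with median depths of 26150 UMIs against 22959 with FGFRi and of 28673 to 31435 against 21172 to 22426 otherwise. Levels are relative to all UMIs of each set of cells. Among the 8 members that reached 10 CPM in some library, 3 were lower in cells with a Mki67 UMI in 5 of 5 libraries, against 2.21% of all genes, and 1 was higher in 5 of 5, against 10.2% of all genes. The members were chosen with their levels in this split known, so nothing follows from these counts about them as a set. The count of 1 higher member of 8 is near the share of all genes.

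The 3 lower genes were Cdkn2a, Cdkn2b and Cdkn1a. With FGFRi the Cdkn2a level was 186 CPM in cells with a Mki67 UMI and 506 CPM in cells without one. At 0 ng/ml these levels were 39.0 and 158 CPM, and at 12 ng/ml 5.67 and 32.6 CPM. The ratio of the level with to that without was 0.368 with FGFRi and 0.246, 0.244, 0.326 and 0.174 along the doses. For Cdkn2b it was 0.413, 0.354, 0.466, 0.50 and 0.190 in the same order. Cdkn1a had its lowest ratio with FGFRi, 0.364 (0.351 to 0.377), from 172 and 474 CPM, and ratios of 0.538 (0.509 to 0.569), 0.828 (0.779 to 0.881), 0.873 (0.815 to 0.936) and 0.756 (0.714 to 0.802) along the doses. All of these intervals lay below 1. The size of the ratios depended on the split, although those of the 3 genes were below 1 under all 5 alternatives. For Cdkn2a at 3 ng/ml the ratio was 0.112 with cells split on Top2a, another gene of cycling cells, and 0.506 with at most 5% mitochondrial UMIs. With Mki67 read from thinned cells the Cdkn2a ratios at 0.75 and 12 ng/ml were 0.372 and 0.321, and the Cdkn2b ratio at the higher of these doses was 0.348. The Cdkn2b ratio at 3 ng/ml was 0.249 with the split on Top2a.

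The gene that was higher in cells with a Mki67 UMI in all libraries was Cdkn2d, whose transcript is known to be periodic in the cell cycle. The ratio was 2.14 (1.87 to 2.45) with FGFRi and 2.01, 1.75, 1.88 and 1.44 along the doses. Cdkn1b, though an inhibitor, was also at ratios above 1, from 1.15 to 1.54, with intervals that reached 1 at 0 and 0.75 ng/ml. With cells split on Top2a its ratio was 0.906 (0.784 to 1.05) at 0 ng/ml and 1.16 (0.982 to 1.39) at 0.75 ng/ml. The D cyclins had ratios from 0.651 to 1.30, on different sides of 1. The Ccnd1 ratio was 1.11 (1.00 to 1.24) with FGFRi, 1.21 (1.12 to 1.31) at 0 ng/ml, 1.01 and 1.02 at 0.75 and 3 ng/ml, and 0.821 (0.780 to 0.865) at 12 ng/ml. The Ccnd2 ratio was 0.651 (0.622 to 0.681) with FGFRi and 1.16 (1.09 to 1.23) at 0 ng/ml, and between 0.819 and 0.929 with FGF2. The Ccnd3 ratio was 1.30 (1.23 to 1.37) with FGFRi, 1.13 (1.05 to 1.21) at 0 ng/ml and 0.880 to 0.956 with FGF2. These directions depended on the gene that marked cycling cells. With the split on Top2a the Ccnd2 ratio was 1.36 (1.29 to 1.44) at 0.75 ng/ml, 1.35 (1.26 to 1.45) at 3 ng/ml and 1.002 at the highest dose. The Ccnd1 ratio at 0.75 ng/ml was then 1.47 (1.35 to 1.60). That of Ccnd3 at 12 ng/ml was 1.11 (0.992 to 1.25).

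**Figure D3:**
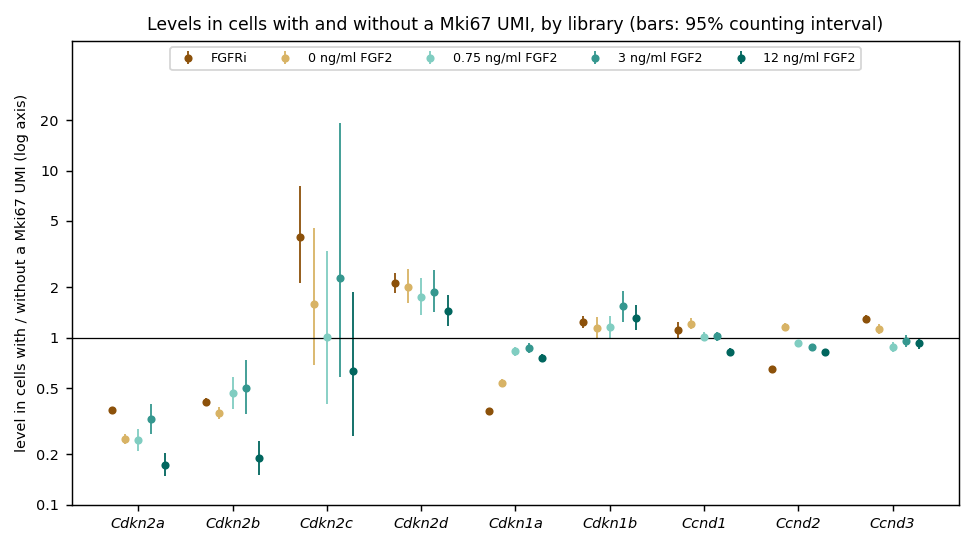
Ratio of the level in cells with a Mki67 UMI to that in cells without one, on a log axis, for each of the 9 genes and 5 libraries, with bars for the 95% counting interval and a line at 1. Cdkn2a (0.174 to 0.368), Cdkn2b (0.190 to 0.50) and Cdkn1a (0.364 to 0.873) lie below 1 and Cdkn2d (1.44 to 2.14) above 1 in all 5 libraries, and the intervals of Cdkn2c are wide.

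Since fewer cells had a Mki67 UMI with FGFRi, the libraries were also compared within each of the 2 sets. Cdkn2a was lower at 0 ng/ml than with FGFRi by 4.78-fold (4.53 to 5.05) among cells with a Mki67 UMI and by 3.20-fold (3.03 to 3.39) among cells without, and Cdkn2b by 3.08-fold and 2.64-fold. Both ratios were smaller than over all cells. Cdkn1a was lower by 1.67-fold (1.60 to 1.74) and 2.47-fold (2.34 to 2.60). Ccnd1 was higher by 3.36-fold (3.11 to 3.64) and 3.09-fold (2.79 to 3.43), close to the value over all cells. Ccnd2 was 1.39-fold (1.33 to 1.45) higher at 0 ng/ml than with FGFRi among cells with a Mki67 UMI, and its ratio among cells without was 0.781 (0.735 to 0.830), so the value near 1 over all cells held 2 opposite differences. Between 0 and 12 ng/ml, Ccnd1 was 1.54-fold higher among cells with a Mki67 UMI and 2.28-fold higher among cells without, and Ccnd2 1.92-fold and 2.71-fold. Cdkn1a had ratios of 1.15 (1.10 to 1.19) and 0.815 (0.759 to 0.876), so its value near 1 over all cells also held opposite differences.

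Cells were next put into classes by the cadherins Cdh1, which holds epithelial cells together, and Cdh2, which replaces it in mesoderm. Classes were made from cells thinned to 10000 UMIs. Cells with a UMI of Cdh1 and none of Cdh2 made up 32.9% of cells with FGFRi and 38.8%, 32.9%, 18.5% and 13.1% along the doses, and cells with Cdh2 alone 33.8%, 25.1%, 33.8%, 49.3% and 54.2%. With FGFRi the Cdkn2a level was 211 CPM in cells with Cdh1 alone and 481 CPM in cells with Cdh2 alone, 2.28-fold (2.19 to 2.37) higher. Without FGF2 the order was turned, with 63.4 and 38.1 CPM, and at 12 ng/ml with 17.8 and 4.58 CPM. At 0.75 and 3 ng/ml the levels were 13.4 against 5.01 CPM and 10.1 against 4.76 CPM. The difference at 3 ng/ml depended on how the classes were made: with classes from all UMIs of a cell the ratio of Cdh1-only to Cdh2-only cells was 0.978.

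Cdkn2b showed the same turn, with 124 and 219.6 CPM in cells with Cdh1 alone and with Cdh2 alone with FGFRi, 52.3 and 23.2 CPM at 0 ng/ml and 10.7 and 1.84 CPM at 12 ng/ml. Cdkn1a was at 213 and 432 CPM with FGFRi, at 123 and 107 CPM at 0 ng/ml and at 171 and 109.8 CPM at 12 ng/ml. The cells with UMIs of both cadherins, 4.95% to 7.82% of cells, had the highest Cdkn2a level of the 4 classes in all libraries, with 552 CPM with FGFRi and 150.1, 20.4, 18.6 and 20.2 CPM along the doses. At 12 ng/ml this order is not supported by the cells: the interval (16.7 to 24.2 CPM) overlapped that of cells with Cdh1 alone (15.3 to 20.6 CPM), and 2.69% of these 186 cells had a Cdkn2a UMI after thinning, against 7.67% of the 313 cells with Cdh1 alone. Between FGFRi and 0 ng/ml, the difference in Cdkn2a was 12.6-fold (11.6 to 13.8) in cells with Cdh2 alone and 3.33-fold (3.13 to 3.55) in cells with Cdh1 alone.

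Ccnd1 and Ccnd2 were higher in cells with Cdh2 alone in all 5 libraries. At 0 ng/ml Ccnd1 was at 50.7 CPM in cells with Cdh1 alone and 187 CPM in cells with Cdh2 alone (3.69-fold, 3.44 to 3.97), and Ccnd2 at 78.1 and 327 CPM (4.19-fold, 3.96 to 4.43). At 12 ng/ml the levels were 142 and 176 CPM for Ccnd1 and 197 and 408 CPM for Ccnd2. Within cells with Cdh2 alone, the Ccnd1 level was 187 CPM at 0 ng/ml and 191, 198 and 176 CPM at the 3 doses of FGF2, against 47.8 CPM with FGFRi. Within cells with Cdh1 alone it was 17.0 CPM with FGFRi and 50.7, 61.3, 94.9 and 142 CPM along the doses. The ratio of Ccnd1 from 0 to 12 ng/ml was thus 2.80 (2.59 to 3.03) in cells with Cdh1 alone and 0.938 (0.896 to 0.982) in cells with Cdh2 alone, whose share was highest at 12 ng/ml. It was 1.66 in cells with both cadherins and 1.60 in cells with neither. Ccnd2 in cells with Cdh2 alone was at 244 CPM with FGFRi, 327 CPM at 0 ng/ml and 401 to 408 CPM with FGF2.

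Ccnd3 was higher in cells with Cdh1 alone at each FGF2 dose, with 139.9 and 84.3 CPM at 0 ng/ml (1.66-fold, 1.55 to 1.78) and 92.5 and 83.2 CPM at 12 ng/ml (1.11-fold, 1.03 to 1.20). With FGFRi its levels were 108 and 118 CPM. Cdkn1b was higher in cells with Cdh1 alone in all 5 libraries, by 1.26-fold to 1.79-fold. Cdkn2d was higher there with FGFRi and at 0 and 0.75 ng/ml, by 1.41-fold to 1.69-fold, and its interval of the ratio held 1 at 3 and 12 ng/ml.

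**Figure D4:**
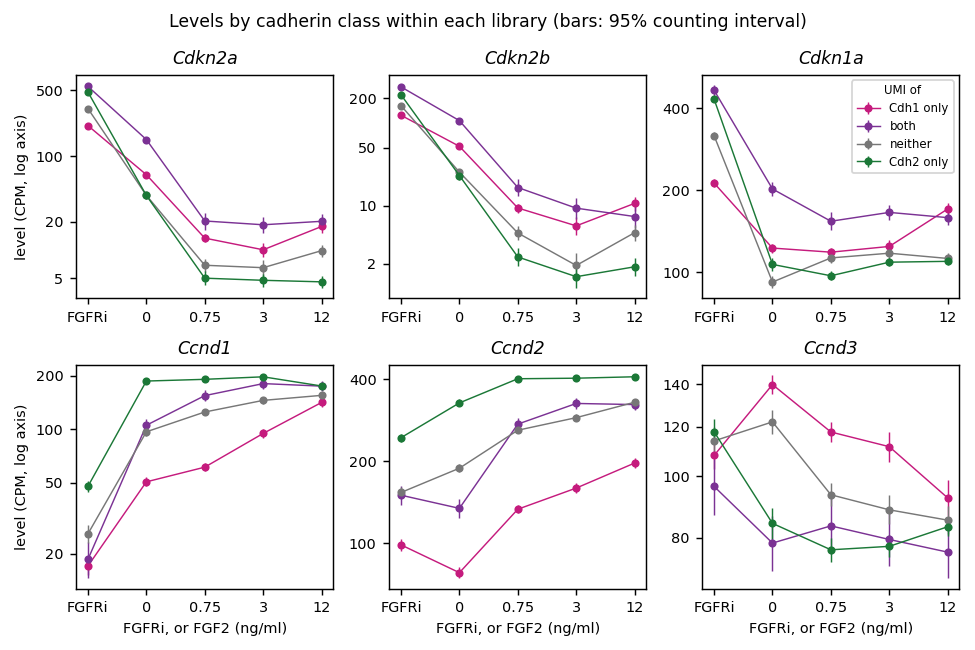
Levels of 6 members on log axes, in CPM, in cells with a UMI of Cdh1 only, Cdh2 only, both or neither within each library, with bars for the 95% counting interval. With FGFRi the Cdh2-only cells lie above the Cdh1-only cells for Cdkn2a (481 against 211 CPM) and at 0 ng/ml below them (38.1 against 63.4 CPM), and Ccnd1 in Cdh2-only cells stays between 176 and 198 CPM at 0 to 12 ng/ml FGF2.

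The members were also split by T (T/Bra), the marker of primitive streak and nascent mesoderm, by Cdx2 and by Hand1, with these genes again read from cells thinned to 10000 UMIs. With FGFRi 12 cells had a T UMI, and no split on T was made there. Cdkn2a was lower in cells with a T UMI in the other 4 libraries, at ratios of 0.110 (0.0843 to 0.141), 0.189, 0.113 and 0.129 along the doses, and Cdkn2b at 0.112, 0.206, 0.147 and 0.0914. At 0 ng/ml these were 7.33 CPM of Cdkn2a in 266 cells with T and 66.8 CPM in 1413 cells without. In cells with a Cdx2 UMI, Cdkn2a was at 0.395 (0.349 to 0.446) of the level in cells without one with FGFRi and at 0.185, 0.153, 0.0402 and 0.182 along the doses. Low levels of the INK4 pair therefore went with T and with Cdx2 inside each library in which the split could be made. In cells with a Hand1 UMI both genes were higher in all 5 libraries, Cdkn2a by 1.24-fold to 2.73-fold and Cdkn2b by 1.25-fold to 2.66-fold.

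Cdkn1a was also lower in cells with Cdx2 in all 5 libraries, at ratios from 0.341 with FGFRi to 0.697 at 0.75 ng/ml. For T its ratio was 0.698 (0.646 to 0.753) at 0 ng/ml and 1.06 to 1.09 with FGF2. Ccnd2 was higher in cells with T in each of 4 libraries, by 2.13-fold at 0 ng/ml and 1.38-fold at 12 ng/ml. Ccnd1 was 2.05-fold (1.93 to 2.17) higher in cells with T at 0 ng/ml, and the ratio was 1.70, 1.29 and 1.05 at the 3 higher doses. For Cdx2 the Ccnd1 ratio was above 1 with FGFRi (2.40, 1.98 to 2.89), without FGF2 (1.70) and at 0.75 ng/ml (1.18), and below 1 at 3 ng/ml (0.854, 0.815 to 0.895) and 12 ng/ml (0.817, 0.785 to 0.850). Ccnd3 was lower in cells with T in 4 of 4 libraries, at ratios of 0.663 to 0.907.

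**Figure D5:**
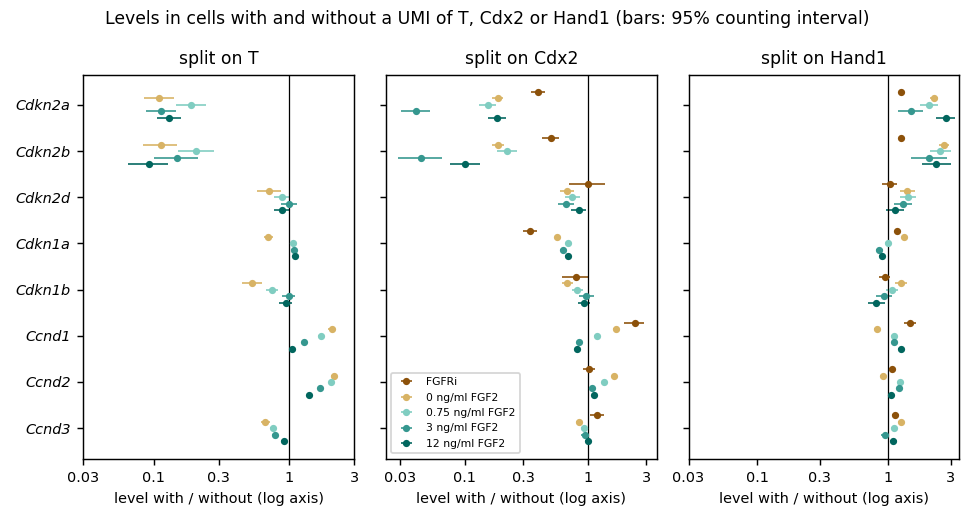
Ratio of the level of 8 members in cells with a UMI of T, Cdx2 or Hand1 to that in cells without one, on log axes, for each library with at least 20 cells in both sets, with bars for the 95% counting interval and a line at 1. Cdkn2a and Cdkn2b lie below 1 for T and Cdx2 and above 1 for Hand1 in all libraries shown, and Ccnd1 moves from 2.05 at 0 ng/ml to 1.05 at 12 ng/ml in the split on T.

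Genes upstream and downstream of the members were described from lists. Of all 8445 genes tested from FGFRi to 0 ng/ml, 221 were counted as higher and 454 as lower at 0 ng/ml, and of 8237 from 0 to 12 ng/ml 154 were higher and 333 lower at 12 ng/ml. Of 13 S-phase genes that E2F turns on, 8 were counted as higher at 0 ng/ml than with FGFRi and none as lower, with a median log2 change of 1.07 against 0.00 over all genes. Cdc6, which loads the replicative helicase, was at 12.3 and 30.3 CPM, and Rrm1, the smallest ratio, at 77.0 and 111 CPM. From 0 to 12 ng/ml none of the 13 was counted (Tk1 1.65-fold, Mcm5 1.12-fold). Of 10 mitotic genes, Mki67 (93.2 and 218 CPM) and Plk1 (24.0 and 48.6 CPM) were counted as higher at 0 ng/ml than with FGFRi, Aurka (1.80-fold) had the smallest ratio, and from 0 to 12 ng/ml none was (Top2a 1.29-fold, Mki67 at 0.892).

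Of 11 pocket protein and E2F genes measured at 10 CPM or more from FGFRi to 0 ng/ml, E2f1 was counted as higher (6.69 and 13.5 CPM) and Rb1, the retinoblastoma gene, as lower (14.5 and 5.53 CPM). No gene of 10 was counted from 0 to 12 ng/ml, with E2f1 at a ratio of 1.38 and E2f8 at 0.538. Among 10 partners of the members, Ccne1, the cyclin that drives CDK2, was counted as higher (10.7 and 24.9 CPM) and Cdkn1c, the third Cip/Kip gene, as lower at 0 ng/ml than with FGFRi (32.0 and 11.7 CPM). From 0 to 12 ng/ml none was, with Cdk6 at a ratio of 1.65 and Cdkn1c at 0.586. None of 8 genes for the turnover of Kip proteins and D cyclins was counted at either step, and Skp2, which marks p27 for degradation, was at 23.3 CPM with FGFRi and 39.4 CPM at 0 ng/ml and Gsk3b at 235 and 174 CPM. Their ratios from 0 to 12 ng/ml were 1.24 and 0.797.

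Among 12 genes of p53 and its targets, which include no member, 4 were counted as lower at 0 ng/ml than with FGFRi (Mdm2, Trp53inp1, Eda2r and Perp), with a median log2 change of -0.65, against 7.99% of all genes counted in either direction and a median of 0.00. Mdm2, the p53 ligase, was at 137 and 53.9 CPM and Trp53inp1 at 90.6 and 33.7 CPM, whereas the Trp53 transcript was at 165 and 199 CPM. From 0 to 12 ng/ml, Perp was counted as lower (60.3 and 23.8 CPM) of 11, and Sesn2 had the highest ratio (1.66). Whether these targets and Cdkn1a differed for the same reason was not tested. None of 10 Polycomb and demethylase genes was counted at either step. Kdm6b, a demethylase known to act at Cdkn2a, was at 140.1, 119 and 103 CPM with FGFRi, at 0 and at 12 ng/ml, and Cbx2 at 15.5, 23.9 and 25.2 CPM, and Suz12 at 70.5, 93.8 and 119 CPM.

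Of 7 ERK target genes, 4 were counted as higher at 0 ng/ml than with FGFRi (Dusp6, Dusp4, Etv4 and Etv5), and Egr1 as lower (76.4 and 31.0 CPM), against 7.99% of all genes in either direction. The median log2 change of the list was 1.32, against 0.00 over all genes. Etv4 was at 1.38 CPM with FGFRi and 15.9 CPM at 0 ng/ml. From 0 to 0.75 ng/ml Spry4 was counted, and from 0 to 12 ng/ml Dusp4, Spry4 (5.88 and 25.6 CPM) and Etv4 of 8, with Myc the lowest at a ratio of 0.544. Of the BMP and TGF-beta targets, Id1 was counted as higher at 0 ng/ml than with FGFRi of 6 (64.0 and 164 CPM), and Id2 as lower at 12 ng/ml than at 0 ng/ml of 5 (281 and 137 CPM, Id1 highest at 1.10). Genes of fibroblasts were higher with FGFRi too, at a summed level of 106 CPM against 33.3, 15.9, 11.7 and 15.5 CPM along the doses, with 3 of 6 at 5 CPM or more and Thy1 at 0.335 CPM. The methods name no feeder cells, and the part of such cells in the Cdkn2a level was not tested. Genes of blood and endothelium summed to 0.650 to 7.53 CPM.

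Likeness of pattern was measured over 20 groups, the 4 cadherin classes of each library, among 3514 genes, as Pearson's r of log2(CPM + 1). The groups share libraries and their depth, and r is a description. Cdkn2a and Cdkn2b had r of 0.99 with each other. Of genes that are no members, Tubb2a (0.99), Pdia3 (0.98) and Runx1 (0.98) were most like Cdkn2a, and Runx1 (0.99), Timp3 (0.99) and Cald1 (0.99) most like Cdkn2b. Runx1 was at 189 CPM with FGFRi and 57.2, 10.2, 5.36 and 8.35 CPM along the doses, which included the lowest level at 3 ng/ml. For Cdkn1a these genes were Clcn5 (0.97), Zdbf2 (0.96) and Plod2 (0.96), and for Cdkn1b Atp6ap1 (0.99), App (0.98) and Hebp1 (0.98). Ccnd1 was most like Ran (0.97), Commd1 (0.97) and Il17rd (0.97), and Il17rd was at 15.1 CPM with FGFRi and 36.9, 52.9, 64.4 and 64.2 CPM along the doses. Ccnd2 was most like Ralgps2 (0.96), Cdk2ap1 (0.95) and Ybx1 (0.94), and Ccnd3 most like Tcf7l1 (0.85), Lamtor2 (0.81) and Gipc1 (0.81). For Cdkn2c (Mrpl54 0.88, Lrif1 0.87, Wnt4 0.87) and Cdkn2d (Higd2a 0.84, Tmem134 0.84, Naxe 0.82) the values were lower. Between members, the lowest r were -0.95 for Cdkn1b and Ccnd1, -0.86 for Cdkn2c and Ccnd2, and -0.81 for Ccnd1 with Cdkn2a and with Cdkn2b.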

How the data were processed

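Single-cell RNA-seq libraries (10x Genomics 3′ kit v3.1) were used, 1 per condition. The authors deposited raw UMI counts per gene and barcode from their deep sequencing run, aligned to mm10 (GENCODE vM23/Ensembl 98) with Cell Ranger, whose version is 5.0.1 in the file headers and an earlier one in the methods. The deposited counts were neither normalized nor filtered beyond cell calling, and shallow barcodes were included (from 500 UMIs). Following the methods, barcodes were kept at 2500 or more genes and at most 10% mitochondrial UMIs, leaving 47824660 to 81538748 UMIs per library. No normalization between libraries was applied, and total counts served as the denominator (TMM factors 0.993 to 1.01, edgeR 4.0.16).

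Levels were summed UMIs over the library total (CPM), with exact Poisson 95% intervals. Ratios had exact conditional intervals and shares exact binomial ones, none of which covers the spread between cultures. Genes at 10 CPM or more in either library with a ratio of at least 2 were counted, and list medians were taken over log2(CPM + 1). Thinning drew 10000 UMIs per cell, which left out 9 to 39 shallower cells per library. Doublets were not removed, and leaving out the 5% of cells with most UMIs was an alternative. Classes under 20 cells were left out. GENCODE vM21 held 32235 of the 32285 gene identifiers, and RefSeq promoter windows were found for 7 of the 9 members. The steps were tested on simulated data. Python 3.11.15 and SciPy 1.17.1 were used.

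The members, the lists and the rules were chosen with earlier results of these data known. Named are all members, the genes that split cells, the members of each list with the largest and smallest ratio or in a count of 5 or fewer, and the 3 genes most like each member, except that 1 gene is not reported here. The lists covered partners of CDK4/6 and CDK2, pocket proteins and E2F, S-phase and mitotic genes, Polycomb, p53, turnover, BMP/TGF-beta and ERK targets, and cell type markers.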

Additional observations from a re-analysis of the deposited data

Results flagged for a closer look

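The D cyclins were singled out because their ratios between cells with and without a Mki67 UMI lay on opposite sides of 1 in different libraries, with intervals off 1. The ratio of Ccnd1 was 1.21 at 0 ng/ml FGF2 and 0.821 at 12 ng/ml. That of Ccnd2 was 1.16 at 0 ng/ml and 0.651 with FGFRi, and that of Ccnd3 was 1.30 with FGFRi and 0.880 at 0.75 ng/ml. With Mki67 read from cells thinned to 10000 UMIs the Ccnd1 ratio at 0 ng/ml was 1.05, with an interval of 0.997 to 1.12 that held 1. With the split on Top2a, Ccnd2 was above 1 at 0 ng/ml (1.31), 0.75 ng/ml (1.36) and 3 ng/ml (1.35). With 1 library per condition the differences between libraries were not tested.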

How the results depend on the processing

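No paired analysis was possible because each condition is 1 library. The counts of members by the rule of size were within 1.5 times the reported ones for all 5 pairs of libraries with TMM scaling, all deposited barcodes, at most 5% mitochondrial UMIs, cells thinned to 10000 UMIs, equal weight per cell, a ratio of 1.5 and without the 5% of cells with most UMIs. With a floor of 50 CPM, 1 member in place of 2 was counted from 0 to 0.75 ng/ml FGF2. Without a floor, 1 in place of 0 was counted from 0.75 to 3 ng/ml, where 20.5% of all genes were. These follow from which genes are tested. The number of members lower in cells with a Mki67 UMI in all libraries was 3 under every alternative. The number higher was 2 (Cdkn2d and Cdkn1b) in place of 1 with the split made in cells thinned to 10000 UMIs or at 2 or more Mki67 UMIs. With the split on Top2a the Cdkn1b ratio at 0 ng/ml was 0.906, below 1. With the FGFRi library left out, an alternative added after the data had been seen, the numbers were 3 and 1. Among these alternatives the share of all genes is given only for the case without a floor. The other counts therefore describe the members alone and cannot be set against all genes. With cadherin classes from all UMIs, the Cdkn2a ratio of Cdh1-only to Cdh2-only cells at 3 ng/ml was 0.978, on the other side of 1, and the cause was not tested. All 45 shares of cells moved with thinning. Of 45 log2 ratios, 3 small ones changed sign under some of 6 alternatives: those of Ccnd2 (0.09) and Ccnd3 (0.05) from FGFRi to 0 ng/ml, to -0.04 and -0.03 with equal weight per cell, and to -0.01 and -0.07 with thinning, and that of Ccnd1 from 3 to 12 ng/ml (0.01, lowest -0.01). Of the 45, 14 moved beyond their counting interval with thinning, 8 with equal weight per cell, 7 with at most 5% mitochondrial UMIs and 5 without the 5% of cells with most UMIs. Of 45 ratios of Cdh1-only to Cdh2-only cells, 18 moved likewise with classes from all UMIs and 20 with classes from cells thinned to 5000 UMIs. Depth limits Cdkn2c, with 33 to 60 UMIs per library, and Cdkn2a and Cdkn2b in libraries with FGF2.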
